A study of Homo sapiens with 12 samples.

Results

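The interaction of SEL201 and OTX015 was taken from all 12 of the 12 libraries as the change with both agents minus the sum of the changes with each agent alone, on the log2 scale. RNA came from A375, an established human melanoma line with an activating BRAF mutation, kept in culture for 72 h in each of 4 groups of 3 libraries. The groups were DMSO, the drug solvent (titled UNTREATED), SEL201 at 2.5 µM, OTX015 at 50 nM, and both agents (COMBO). The libraries of a group carry the numbers 1, 2 and 3, and the number entered the model as a block. Of 8579 genes tested, 579 departed from the sum at an adjusted p under 0.05. In 345 genes (4.02% of those tested) COMBO was higher than the sum, and in 234 genes (2.73%) it was lower. A375 is a single line, so the groups differ only in what was added to it, and the labels do not say that the libraries of a group came from separate cultures. All p-values therefore rest on the spread between these libraries that group and number leave unexplained, and that spread may be technical.

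SEL201 blocks MNK1 and MNK2, kinases that sit below the MAPK pathway and phosphorylate the cap-binding translation factor eIF4E. RNA levels, and not translation, were measured. OTX015 inhibits the BET bromodomain proteins, which bind acetylated histones and recruit the elongation machinery to promoters and enhancers. An interaction of 0 means that each agent multiplied the RNA level of a gene by the same factor whether or not the other was present. A positive interaction of a gene that both agents lower means that COMBO lowered it by less than the product of both factors, and the value alone does not say whether COMBO was above or below either agent.

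The promoters of 4 genes with large departures show the DNA just before the start of transcription, and they were chosen for display after the values were seen. SERPINB2 and C3AR1 were higher in COMBO than the sum, and NPPC and MEGF10 were lower. The sequences are from RefSeq on GRCh38.p14 and run 5′ to 3′ along the gene from 250 bases before the annotated start to 50 bases from it, while the reads were counted on another build (hg19). SERPINB2 lies on the plus strand (chr18:63887455-63887754), C3AR1 on the minus strand (chr12:8066310-8066609), NPPC on the minus strand (chr2:231926347-231926646) and MEGF10 on the plus strand (chr5:127290546-127290845). Capitals mark matches to the motifs searched.
SERPINB2: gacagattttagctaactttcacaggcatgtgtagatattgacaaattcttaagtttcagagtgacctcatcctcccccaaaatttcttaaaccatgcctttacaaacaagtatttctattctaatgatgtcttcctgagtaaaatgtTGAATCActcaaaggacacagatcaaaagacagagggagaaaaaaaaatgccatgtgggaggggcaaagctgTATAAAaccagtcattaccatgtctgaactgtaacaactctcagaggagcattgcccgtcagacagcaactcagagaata
C3AR1: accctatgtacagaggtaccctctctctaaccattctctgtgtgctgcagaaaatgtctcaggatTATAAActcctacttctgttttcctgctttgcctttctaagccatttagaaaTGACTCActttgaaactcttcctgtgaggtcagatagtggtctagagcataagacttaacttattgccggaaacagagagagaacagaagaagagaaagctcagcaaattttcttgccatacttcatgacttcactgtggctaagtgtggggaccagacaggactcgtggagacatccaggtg
NPPC: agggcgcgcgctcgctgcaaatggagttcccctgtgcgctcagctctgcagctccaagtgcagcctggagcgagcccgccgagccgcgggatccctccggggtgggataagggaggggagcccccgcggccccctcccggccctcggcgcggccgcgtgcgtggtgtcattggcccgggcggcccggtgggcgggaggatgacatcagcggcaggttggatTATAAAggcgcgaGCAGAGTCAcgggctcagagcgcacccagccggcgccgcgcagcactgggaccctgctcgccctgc
MEGF10: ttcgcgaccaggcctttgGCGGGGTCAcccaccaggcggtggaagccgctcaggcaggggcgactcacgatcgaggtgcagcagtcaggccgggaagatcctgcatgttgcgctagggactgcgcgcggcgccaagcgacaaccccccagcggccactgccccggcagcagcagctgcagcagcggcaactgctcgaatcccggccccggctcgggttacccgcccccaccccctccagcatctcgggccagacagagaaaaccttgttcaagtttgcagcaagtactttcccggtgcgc
The 6 motifs were searched on both strands, and their shares are of all 35116 RefSeq promoters of this length. They were the AP-1 site TGANTCA (7.71% of promoters), the cyclic AMP response element TGACGTCA (1.85%), the antioxidant response element TGACNNNGC (13.3%), the E-box CACGTG (7.26%), the interferon response element GAAANNGAA (8.11%) and the TATA box TATAAA (11.5%). A match to the antioxidant response element can contain an AP-1 match. The SERPINB2 promoter held an AP-1 match at −102 and a TATA match at −30, counted from the annotated start. The C3AR1 promoter held an AP-1 match at −133 and a TATA match at −185. In NPPC a TATA match at −29 was followed by an antioxidant response element match at −16, and MEGF10 held an antioxidant response element match at −232. Among the other promoters matched for genes higher than the sum, S100P, NLRP3 and IL37 held a TATA match only, and SEMA5A, SERPINB7, AKR1C1 and PXDN held none of the 6 motifs, so that AP-1 was matched in 2 of 9. Among genes lower than the sum, SSX2 held an antioxidant response element match, and SOD3, PIANP and IGFBP5 held none. These are matches of letters, and binding of a factor was not measured. RefSeq promoters were matched for 9 of the 12 genes named below as higher than the sum and 6 of the 12 named as lower, too few for a share over either set.

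The table of counts used here covers genes with mean counts from 78.67 to 9158.7, and genes outside it were not analysed here. Its column totals ran from 15146071 to 24111541, summed over the listed genes, so they do not give the depth of sequencing. Levels are given as CPM, counts scaled to a common value of these totals. The first principal component of log2 CPM (72.9% of the variance) ordered the groups, and on the second (8.8%) the 4 libraries with number 3 lay between −12.7 and −6.9, apart from the other 8 at 1.7 to 7.7. Of the melanocytic markers, MITF, PMEL, MLANA and S100B (4 of 7) were in the table, at summed levels of 208 to 281 CPM over the 12 libraries. Of markers of other cell types, LYZ was there for leukocytes (1 of 8), KDR for endothelium (1 of 5), DCN, LUM and PDGFRA for fibroblasts (3 of 5) and KRT14 for keratinocytes (1 of 6). Their summed levels moved with the groups. LYZ was at 39.2 to 50.2 CPM with DMSO, 29.3 to 32.4 with SEL201, 21.3 to 24.3 with OTX015 and 19.5 to 22.6 with both agents. The fibroblast markers summed to 62.2 to 85.5, 47.4 to 59.7, 37 to 38.1 and 32.4 to 38.9 CPM in the same order. KRT14 was at 155 to 176, 77.7 to 88.5, 52 to 62.3 and 36 to 42, and KDR at 81 to 142, 66.1 to 109, 70.6 to 121 and 101 to 157. The part of other cell types in the results was not tested.

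Departures from the sum were mostly small. Over all tested genes the interaction had a median of −0.00587 and an SD of 0.207 (log2), and the genes past the threshold ran from 2.04 to −1.03. The median of the genes higher than the sum was 0.445, and that of the genes lower than the sum was −0.287. A departure of at least 1.5-fold was found in 107 genes upward (1.25% of those tested) and in 24 downward (0.28%), and one of at least 2-fold in 26 and 2. Within each number taken alone the interaction had the called sign in all 345 genes higher than the sum, and in 233 of the 234 lower ones, while 38.4% of all tested genes had 1 sign in the 3 numbers. Because the calls were made from these same libraries, their agreement in sign is largely built in and is not replication. The calls rest on comparing libraries of the same number: with no replicate block edgeR called 18 genes higher and 6 lower, all 24 among the 579. The split between directions depends on the scaling, with 59.6% of the calls higher than the sum after TMM scaling and 49.4% (309 higher and 317 lower) when counts were scaled by column totals only. Without the libraries of number 3, the calls were 218 higher and 187 lower.

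Fewer genes passed the threshold for each agent, and the log2 changes were less spread, when the other agent was present. SEL201 raised 1541 genes (18% of those tested) and lowered 1639 (19.1%) against UNTREATED, and against OTX015 alone COMBO was higher in 861 (10%) and lower in 1047 (12.2%). Over all genes the log2 change with SEL201 had an SD of 0.286 without OTX015 and of 0.201 with it. OTX015 raised 2544 genes (29.7%) and lowered 2568 (29.9%) against UNTREATED, and against SEL201 alone COMBO was higher in 2233 (26%) and lower in 2351 (27.4%). The SD of the OTX015 change was 0.478 without SEL201 and 0.39 with it. These spreads contain library noise as well as the changes themselves. The changes of 1 agent with and without the other come from separate libraries. Across genes, which are not independent replicates, their Pearson r was 0.689 for SEL201 and 0.905 for OTX015. Genes raised by SEL201 in both settings numbered 623, which is 40.4% of those raised without OTX015 and 72.4% of those raised with it. For lowered genes the number was 767, or 46.8% and 73.3%. For OTX015 the shared genes numbered 1869 raised (73.5% and 83.7%) and 2002 lowered (78% and 85.2%).

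**Figure D1:**
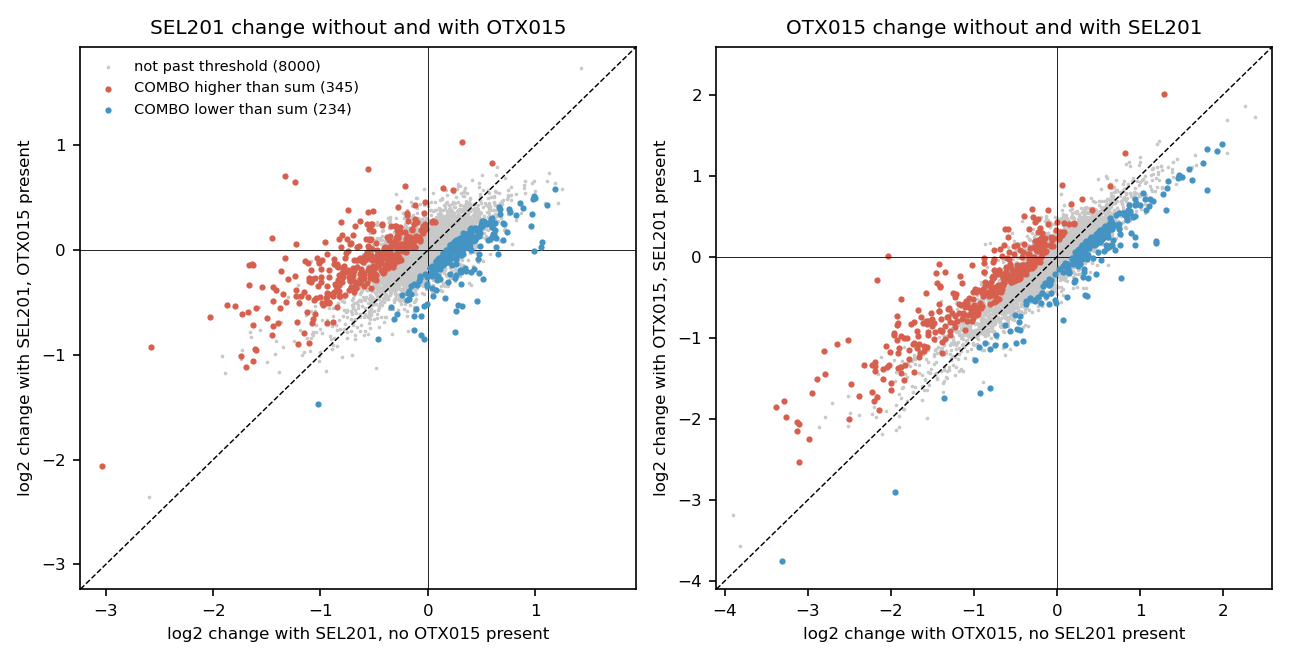
Each point is 1 of 8579 genes, with the log2 change on adding an agent to untreated cells on the x axis and on adding it to cells that also got the other agent on the y axis (left, SEL201; right, OTX015). The dashed line is an interaction of 0, red marks the 345 genes above it past the threshold and blue the 234 below it, and the cloud lies flatter than the line for SEL201.

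KRT6A, SERPINB2 and PXDN were lowered by SEL201 alone but were higher in COMBO than in OTX015 alone. KRT6A, a keratin of stressed and wounded epithelium, was at 13.1, 12.7 and 19.7 CPM with DMSO, 7.09, 4.36 and 6.22 with SEL201, 3.01, 1.96 and 6.66 with OTX015 and 4.39, 5.27 and 8.93 with both agents, in the order of the numbers 1 to 3. The untreated libraries were the highest, and the other 3 groups overlapped, with COMBO above OTX015 within each number. SEL201 lowered KRT6A 2.51-fold in the absence of OTX015 and raised it 1.64-fold (adjusted p = 0.016) in its presence. The interaction was 2.04 (SE 0.28, adjusted p = 9.5e-06), where the sum gives 1.48 CPM against a COMBO mean of 6.2 ± 2.41 (SD, n = 3). KRT6A reads can be shared with the near-identical KRT6B and KRT6C, so its count is uncertain. RNA was measured in bulk, so fewer cells expressing a gene and less RNA per cell cannot be told apart.

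SERPINB2, the plasminogen activator inhibitor PAI-2, was at 55.6, 44.6 and 84.4 CPM with DMSO, 22.0, 18.3 and 40.6 with SEL201, 9.55, 7.75 and 27.4 with OTX015 and 15.5, 13.1 and 41.8 with both agents. The number 3 library was the highest of every group, and within each number the order of the groups was UNTREATED, then SEL201, then OTX015 as the lowest, with COMBO above OTX015. Its departure was 1.89 (SE 0.18, adjusted p = 1e-08), and within the numbers it was 1.99, 1.98 and 1.64. PXDN, a peroxidase that crosslinks basement membrane collagen, was at 15.3, 17.1 and 28.6 CPM with DMSO, 11.3, 11.3 and 18.4 with SEL201, 6.86, 6.48 and 9.05 with OTX015 and 10.0, 12.8 and 15.3 with both agents. All 3 COMBO libraries lay above all 3 OTX015 libraries. PXDN departed by 1.33 (SE 0.18, adjusted p = 5.1e-06), with a COMBO level 1.71-fold that of OTX015. With no replicate block the adjusted p was 0.15 for KRT6A, 0.38 for SERPINB2 and 0.19 for PXDN.

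For C3AR1, IL37, SEMA5A, PTPRB and S100P, the COMBO level lay close to that of OTX015 alone, although SEL201 alone lowered each of them. C3AR1, the receptor for the complement fragment C3a, was at 22.6, 22.3 and 22.4 CPM with DMSO, 7.7, 9.11 and 7.8 with SEL201, 4.33, 3.28 and 3.15 with OTX015 and 4.39, 3.42 and 3.84 with both agents. OTX015 and COMBO overlapped, and both lay below SEL201, which lay below UNTREATED. SEL201 lowered C3AR1 2.73-fold in the absence of OTX015, and the change in its presence was 0.12 (log2, SE 0.17, adjusted p = 0.69). The departure of 1.57 (SE 0.22, adjusted p = 9.5e-06) also passed with no replicate block (adjusted p = 0.0087).

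IL37, an interleukin-1 family cytokine that dampens inflammation, was at 20.1, 21.0 and 24.3 CPM with DMSO, 9.02, 9.41 and 9.27 with SEL201, 2.53, 2.1 and 2.13 with OTX015 and 2.41, 1.66 and 3.11 with both agents. The COMBO libraries lay on both sides of the OTX015 ones. IL37 departed by 1.29 (SE 0.25, adjusted p = 0.00088), and by 0.99 (adjusted p = 0.055) without the libraries of number 3. SEMA5A, an axon guidance semaphorin, averaged 40.7 ± 9.99 CPM with DMSO, 13.2 ± 5.32 with SEL201, 3.94 ± 0.86 with OTX015 and 3.82 ± 2.59 with both agents (SD, n = 3). PTPRB, a receptor tyrosine phosphatase of endothelium, averaged 19.3 ± 2.36, 6.17 ± 0.53, 1.94 ± 0.77 and 1.9 ± 1.06 CPM in the same order. In both, the OTX015 and COMBO libraries overlapped and all lay below the SEL201 libraries. SEMA5A departed by 1.53 (SE 0.24, adjusted p = 6.8e-05) and PTPRB by 1.504 (SE 0.33, adjusted p = 0.0035). Without number 3 the PTPRB value was 0.91 (adjusted p = 0.17). S100P, a calcium-binding protein of many carcinomas, departed by 1.49 (SE 0.26, adjusted p = 0.00025). It averaged 18.2 ± 1.93 CPM with DMSO, 5.86 ± 0.89 with SEL201, 3.18 ± 0.77 with OTX015 and 2.85 ± 0.92 with both agents, where the sum gives 1.03.

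CALB1, SERPINB7, AKR1C1 and NLRP3 were lower in COMBO than in UNTREATED by less than the sum gives. AKR1C1, an aldo-keto reductase that reduces progesterone and lipid aldehydes, was at 23.5, 24.7 and 31.2 CPM with DMSO, 7.09, 6.41 and 8.17 with SEL201, 8.5, 6.39 and 6.66 with OTX015 and 4.35, 5.69 and 4.9 with both agents. The COMBO libraries were the lowest and the single agents overlapped. The sum gives 1.97 CPM for AKR1C1, and the departure was 1.35 (SE 0.22, adjusted p = 7e-05, and 0.03 with no replicate block). Its reads can be shared with AKR1C2 and AKR1C3, so its count is uncertain. SERPINB7, a protease inhibitor of skin, departed by 1.39 (SE 0.24, adjusted p = 0.00024), with 31.6 ± 12.6 CPM in UNTREATED and 2.7 ± 0.92 in COMBO, where the sum gives 1.04.

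CALB1, the calcium buffer calbindin, was at 15.9, 27.2 and 41.9 CPM with DMSO, 4.8, 2.85 and 5.85 with SEL201, 3.17, 3.15 and 5.59 with OTX015 and 0.862, 2.17 and 3.44 with both agents. Within the numbers its departure was 0.2, 2.6 and 2.11, so that number 1 lay close to the sum. The fit over the 12 libraries gave 1.65 (SE 0.33, adjusted p = 0.0012), and 1.154 (adjusted p = 0.076) without number 2. NLRP3, the sensor of the inflammasome, departed by 1.34 (SE 0.31, adjusted p = 0.0045), and by 0.94 (adjusted p = 0.18) without number 2. Both genes rest on few reads in COMBO, 20 to 52 for CALB1 and 26 to 60 for NLRP3 per library. COMBO counts were also low for PTPRB (25 to 47), S100P (28 to 79), IL37 (36 to 56), SEMA5A (42 to 102) and SERPINB7 (44 to 56).

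**Figure D2:**
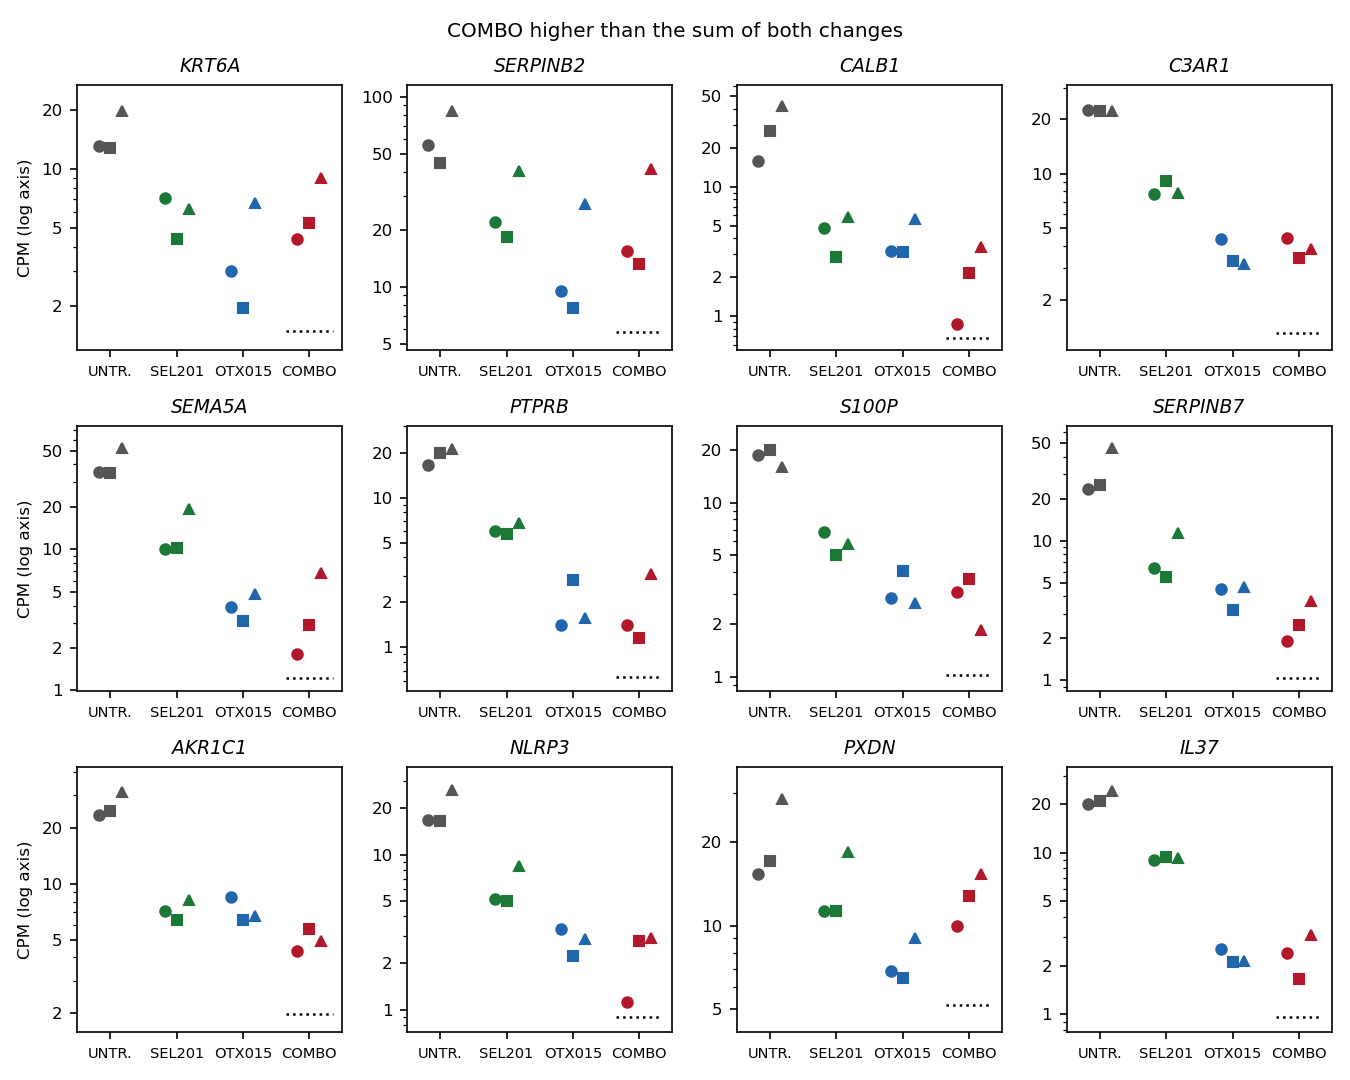
CPM (log axis) by group (UNTR. is the DMSO group) of the 12 genes with the largest positive interaction among those that met the naming rule. There is 1 point per library, drawn as circle, square and triangle for numbers 1, 2 and 3. The dotted line is at the COMBO level the sum gives. Every COMBO library lies above its dotted line, closest for NLRP3 number 1 at 1.12 against 0.895 CPM.

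Genes lower in COMBO than the sum departed by less, and 4 patterns of level were seen among the 12 named. CX3CL1, MEGF10 and SOD3 were raised by each agent alone, and the COMBO libraries overlapped the OTX015 ones. CX3CL1, the membrane-bound chemokine fractalkine, was at 6.09, 5.73 and 4.37 CPM with DMSO, 11.5, 12.6 and 8.05 with SEL201, 14.2, 12.3 and 10.3 with OTX015 and 14.7, 12.7 and 9.26 with both agents. All treated libraries lay above the untreated ones, and the treated groups overlapped. SEL201 raised CX3CL1 1.98-fold without OTX015, and with it the change was −0.01 (log2, SE 0.13, adjusted p = 0.97). The sum gives 24.4 CPM for CX3CL1, and the departure was −0.998 (SE 0.19, adjusted p = 0.00055).

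MEGF10, an engulfment receptor of glia and muscle progenitors, was at 56.2, 52.2 and 24.4 CPM with DMSO, 101, 103 and 67.2 with SEL201, 112, 106 and 78.0 with OTX015 and 129, 101 and 75.7 with both agents. The number 3 library was the lowest of every group. MEGF10 departed by −1.03 (SE 0.12, adjusted p = 4.6e-07), and by −0.64, −1.05 and −1.49 within the numbers. SOD3, the extracellular superoxide dismutase, averaged 5.7 ± 2.69 CPM with DMSO, 11.7 ± 3.39 with SEL201, 19.8 ± 6.07 with OTX015 and 20.8 ± 5.57 with both agents, where the sum gives 41.8. Its departure was −0.98 (SE 0.20, adjusted p = 0.0012). With no replicate block the adjusted p was 0.24 for CX3CL1, 0.39 for MEGF10 and 0.54 for SOD3.

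TBX2, a T-box repressor that holds back senescence in melanoma, was raised further in COMBO than by either agent, but short of the sum. It was at 232, 209 and 189 CPM with DMSO, 425, 401 and 404 with SEL201, 561, 477 and 528 with OTX015 and 620, 563 and 659 with both agents. Each group lay above the one before it, with no overlap. The sum gives 1020 CPM for TBX2 and the COMBO mean was 614 ± 48.2 (SD, n = 3). The departure was −0.73 (SE 0.07, adjusted p = 5.8e-09, and 0.011 with no replicate block), nearly the same in the numbers at −0.73, −0.7 and −0.77. PPM1J, a protein phosphatase, and SSX2, a cancer-testis antigen, were raised by each agent and departed by −0.69 each. Unlike TBX2, they were not raised further in COMBO, and as for CX3CL1 their COMBO libraries overlapped the OTX015 ones. PPM1J averaged 8.19 CPM with SEL201, 11.4 with OTX015 and 9.79 with both agents, and SSX2 averaged 8.29, 7.3 and 7.11. The adjusted p was 0.025 for PPM1J and 0.049 for SSX2, and of 15 fits that left out 1 library or 1 number, PPM1J did not pass in 9 and SSX2 in 14. SSX2 has the near-identical copy SSX2B, so its count is uncertain.

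NPPC, COL2A1 and ITGA9 were not lowered by either agent alone, and all were lower in COMBO than in OTX015 alone. NPPC, the precursor of C-type natriuretic peptide, was at 9.74, 5.64 and 9.13 CPM with DMSO, 11.7, 6.61 and 10.9 with SEL201, 14.8, 12.1 and 14.1 with OTX015 and 8.75, 5.73 and 10.1 with both agents. OTX015 stood above the other 3 groups, which overlapped, and the number 2 library was the lowest of every group. OTX015 raised NPPC 1.71-fold without SEL201, and with it the change was −0.26 (log2, SE 0.14, adjusted p = 0.13). The departure of NPPC was −1.03 (SE 0.20, adjusted p = 0.00072). COL2A1, the collagen of cartilage, was at 21.3, 18.6 and 18.2 CPM with DMSO, 26.9, 24.8 and 20.5 with SEL201, 22.1, 19.7 and 19.2 with OTX015 and 14.3, 14.7 and 13.2 with both agents. All COMBO libraries lay below every library of the other groups. COL2A1 departed by −0.85 (SE 0.14, adjusted p = 9.4e-05, and 0.048 with no replicate block). ITGA9, the integrin subunit alpha 9, was raised 1.21-fold by SEL201 (adjusted p = 0.03) and 1.26-fold by OTX015 (adjusted p = 0.005), and was 1.44-fold lower in COMBO than in OTX015. Its departure was −0.80 (SE 0.15, adjusted p = 0.00035), and 0.38 was the adjusted p with no replicate block.

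IGFBP5, PIANP and ZP4 were lowered by OTX015 and further by both agents, by more than the sum. IGFBP5, which binds insulin-like growth factors, was at 591, 656 and 222 CPM with DMSO, 502, 650 and 237 with SEL201, 284, 337 and 133 with OTX015 and 163, 188 and 78.6 with both agents. The number 3 library was the lowest of every group, and within each number UNTREATED and SEL201 were close while COMBO was the lowest. SEL201 alone gave a change of −0.06 (log2, SE 0.05, adjusted p = 0.34), and with OTX015 present it lowered IGFBP5 1.76-fold. The departure was −0.75 (SE 0.07, adjusted p = 7.5e-09, and 0.84 with no replicate block). PIANP, a membrane protein that binds the paired receptor PILRA, departed by −0.82 (SE 0.25, adjusted p = 0.048), and 11 of 15 fits that left out libraries did not pass. ZP4, a zona pellucida glycoprotein, was raised 1.38-fold by SEL201 alone and was 1.4-fold lower in COMBO than in OTX015. Its departure of −0.95 (SE 0.21, adjusted p = 0.003) was −0.67 (adjusted p = 0.12) without number 3, and 2 of 15 fits did not pass. Counts per COMBO library were 44 to 72 for PIANP and 59 to 76 for ZP4.

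**Figure D3:**
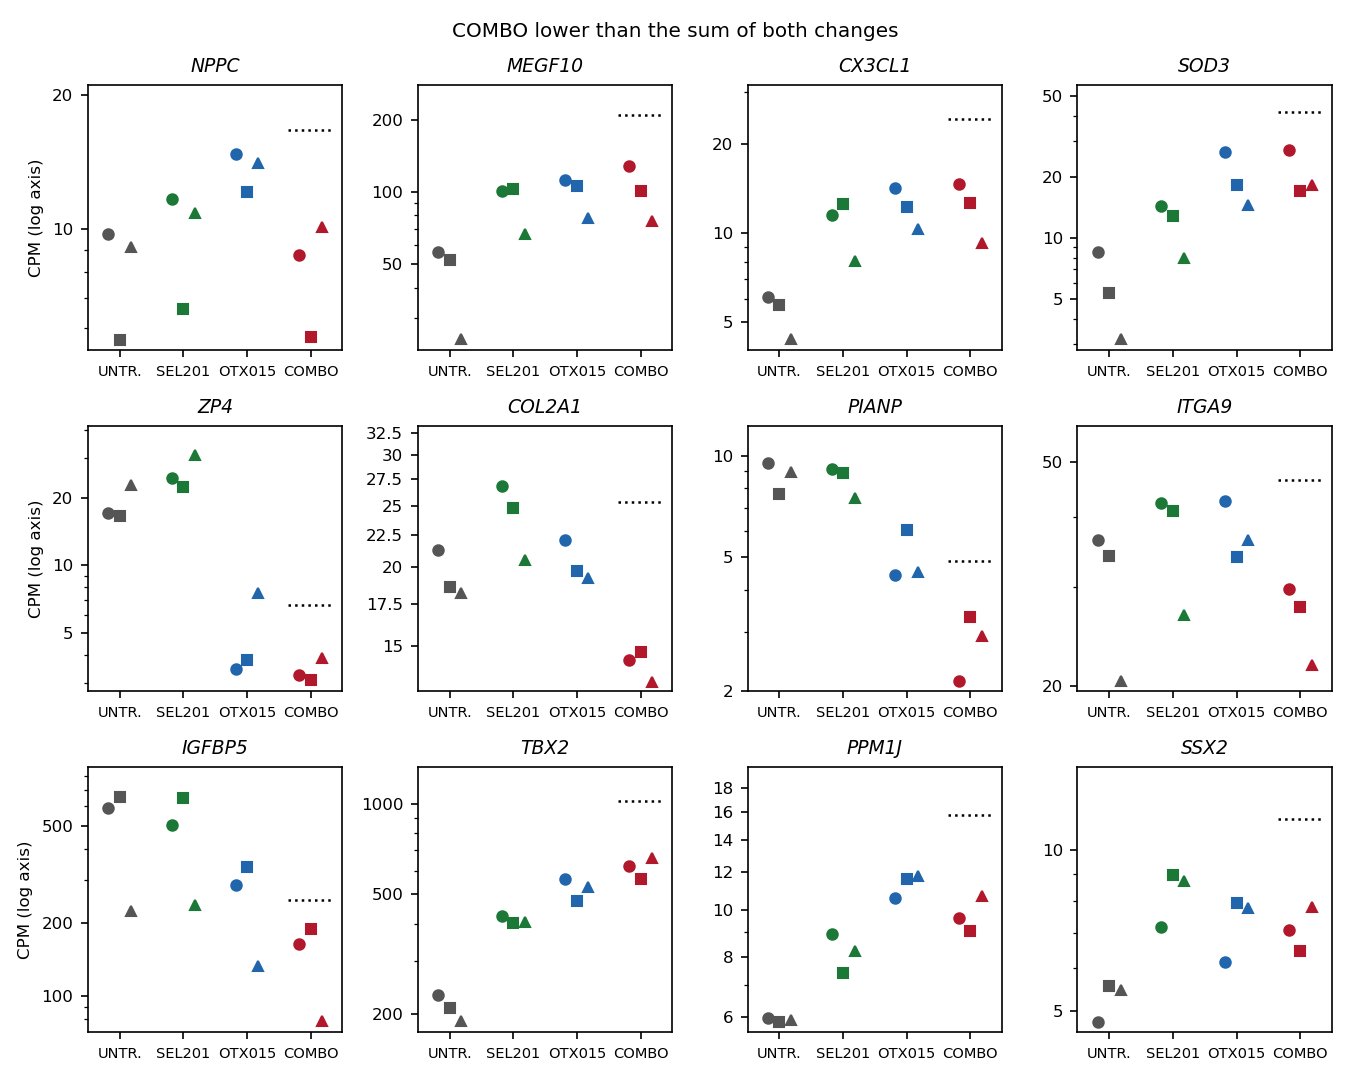
CPM (log axis) of the 12 genes with the largest negative interaction among those that met the naming rule, drawn as for the genes higher than the sum. Every COMBO library lies below the dotted line of the level the sum gives, as for TBX2 at 563 to 659 against 1020 CPM.

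**Figure D4:**
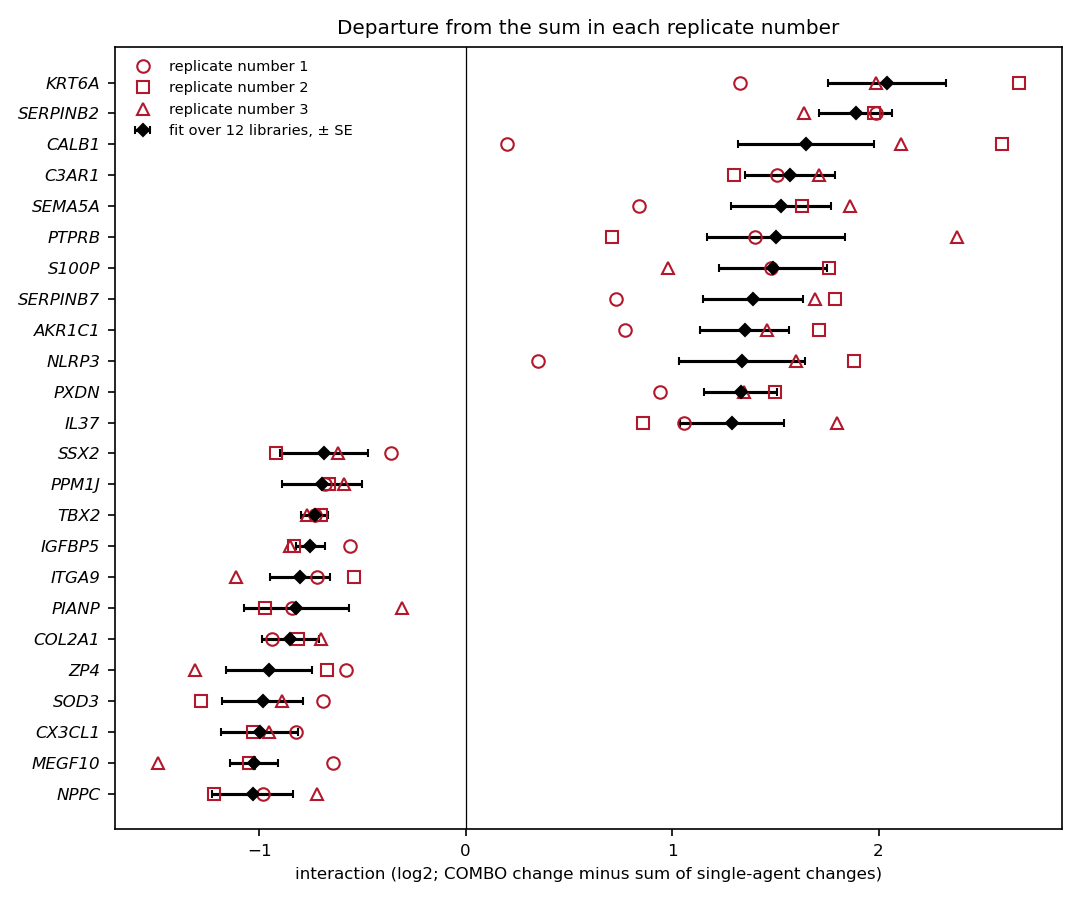
Interaction (log2) of the 24 named genes, with the fit over 12 libraries ± SE as black diamonds and the value within each number as open red symbols. All values of a gene lie on 1 side of 0, which the naming rule required, and they spread most for CALB1 (0.2 to 2.6).

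Of these 24 genes, C3AR1, AKR1C1, COL2A1 and TBX2 (4) also passed with no replicate block. Being named by the size of their interaction, the 24 are given as the extremes among the genes that met the naming rule.

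TGM2, the tissue transglutaminase named in the series title, which crosslinks proteins of the matrix, was lowered by each agent and further by both. It was at 620, 605 and 873 CPM with DMSO, 211, 194 and 286 with SEL201, 222, 215 and 298 with OTX015 and 114, 113 and 152 with both agents. The single agents overlapped, and COMBO lay below both. The sum gives 81.0 CPM for TGM2 against a COMBO mean of 127 ± 22.4 (SD, n = 3), so that COMBO was 1.57-fold above it (interaction 0.65, SE 0.05, adjusted p = 3e-10, and 0.4 with no replicate block). SEL201 lowered TGM2 3.03-fold without OTX015 and 1.93-fold with it, and OTX015 lowered it 2.84-fold without SEL201 and 1.81-fold with it. TGM1, the keratinocyte transglutaminase, departed by 0.17 (SE 0.22, adjusted p = 0.75).

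The table held 5 of 21 genes listed as the agents' targets and partners, and 0 of these 5 departed from the sum in edgeR. Only EIF4A1, the helicase of the cap-binding complex, had an unadjusted p under 0.05 (1 of 5), and DESeq2 called 0. The interaction was 0.23 for EIF4A1 (SE 0.10, adjusted p = 0.18), −0.01 for the target kinase MKNK1 (SE 0.05, adjusted p = 0.96), −0.02 for the eIF4E transporter EIF4ENIF1, −0.03 for the P-TEFb cyclin CCNT2 and −0.08 for LARP7 of the 7SK complex.

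Gene lists were read against the 4.02% of all genes that were higher than the sum and the 2.73% that were lower, and the median of −0.0059 over all genes. Counts are of the members that the table held, which was only part of every list. Lists and members were chosen with earlier results of these data known, so their shares are not independent evidence. Some genes are in more than 1 list. Among genes of the invasive melanoma state, 9 of 16 were higher and 1 was lower, with a list median of 0.28. DKK1, a secreted Wnt antagonist, was at 474, 540 and 768 CPM with DMSO, 228, 209 and 376 with SEL201, 169, 205 and 302 with OTX015 and 157, 195 and 275 with both agents. COMBO lay just below OTX015 within each number. DKK1 departed by 1.04 (SE 0.07, adjusted p = 4.1e-11), where the sum gives 101 CPM. NGFR, the low-affinity nerve growth factor receptor of neural crest cells, was at 51.6, 54.6 and 88.6 CPM with DMSO, 25.5, 25.0 and 44.9 with SEL201, 35.4, 41.4 and 46.9 with OTX015 and 33.9, 37.9 and 45.5 with both agents. OTX015 lowered NGFR 1.54-fold without SEL201 and raised it 1.26-fold with it. NNMT, which methylates nicotinamide, departed by 1.05 (SE 0.12), and the YAP targets CYR61 and ANKRD1 by 0.32 and 0.57. TWIST1, a transcription factor of mesenchymal cells, was the 1 lower member (−0.32, SE 0.06). The counts were 7 and 1 without number 3, and 1 and 0 with no replicate block.

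Of 13 epithelial genes, 6 were higher and 0 lower, with a list median of 0.49. At an unadjusted p under 0.05, 1 was lower, and DESeq2 called 0 lower. KRT80, a filament keratin, departed by 0.74 (SE 0.07, adjusted p = 1e-08), with 898 ± 208 CPM in UNTREATED and 57.1 ± 17.8 in COMBO, where the sum gives 33.8. KRT8, a keratin of simple epithelium, was at 193, 199 and 204 CPM with DMSO, 127, 120 and 123 with SEL201, 107, 115 and 114 with OTX015 and 102, 93.1 and 98.0 with both agents. The 4 groups did not overlap for KRT8, and it departed by 0.49 (SE 0.07, adjusted p = 9.4e-06, and 0.011 with no replicate block). CLDN1, a tight junction protein, KRT14 and MUC1 departed by 0.77, 0.45 and 0.58, and SERPINB7 is described above. KRT14 is also the keratinocyte marker in the table, with the levels given above. The counts were 5 and 0 without number 3, and 1 and 0 with no replicate block.

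Of 16 NF-kB response and cytokine genes, 5 were higher and 0 lower, and at an unadjusted p under 0.05 there were 6 and 0 (DESeq2, 4 and 0). IL24, a cytokine of the interleukin-10 family, was at 249, 228 and 434 CPM with DMSO, 169, 133 and 291 with SEL201, 68.2, 61.1 and 161 with OTX015 and 80.5, 78.3 and 194 with both agents. COMBO lay above OTX015 within each number. SEL201 lowered IL24 1.55-fold without OTX015 and raised it 1.22-fold with it (interaction 0.92, SE 0.10, adjusted p = 9.9e-08). The interleukin-33 receptor IL1RL1 departed by 0.98 (SE 0.20), the interleukin-7 receptor IL7R by 0.58 (SE 0.09) and PTGS2, the inducible cyclooxygenase, by 0.50 (SE 0.07). IL37, described above, was the remaining called member. The other measured members did not pass, among them the chemokines CCL2 (−0.04), CCL20 (0.29), CXCL2 (−0.13) and CXCL3 (0.07). Nor did TNFAIP3 (−0.01), NFKBIE (−0.02) and TRAF1 (−0.18). Of 7 genes listed as complement and innate immune receptors, 4 were higher and 0 lower, with C3AR1 and SPP1 first. The counts were the same at an unadjusted p under 0.05 and in DESeq2, which used the same libraries. Genes of this list were chosen with earlier results known, so its share is not independent evidence. SPP1, the secreted phosphoprotein osteopontin, was at 82.1, 100 and 89.1 CPM with DMSO, 25.3, 27.1 and 28.9 with SEL201, 32.2, 38.2 and 29.2 with OTX015 and 20.2, 25.1 and 19.9 with both agents. COMBO was the lowest group, and its largest library lay just under the smallest of SEL201. SPP1 departed by 1.13 (SE 0.11, adjusted p = 4.4e-08, and 0.011 with no replicate block). With no replicate block, 0 of the NF-kB list and 2 of the complement list passed, and without number 1 the complement list had 2.

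Of 37 interferon-stimulated genes, 4 were higher and 1 lower (10.8% and 2.7%). The largest was IFITM2 at 0.47 (SE 0.13, adjusted p = 0.027), and OAS1 followed at 0.37 (SE 0.10, adjusted p = 0.021). The list count is not stable: leaving out number 1 or number 2 left 0 called, and leaving out number 3 left 1 higher and 1 lower. IFITM2 did not pass in 9 and OAS1 in 8 of the 15 fits that left out libraries, and with no replicate block the list had 0 called. Antigen presentation genes gave 0 of 10 measured (24 listed) in edgeR and in DESeq2, with 2 at an unadjusted p under 0.05. Among 10 measured polyadenylated histone genes (22 listed) edgeR and DESeq2 called 0, with 1 at an unadjusted p under 0.05, and the list median was 0.10.

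Of 20 TGF-beta and YAP target genes, 7 were higher and 1 lower. ANKRD1, CTGF and CYR61 are among the higher genes both here and in the invasive list, so these counts overlap. FST, the activin antagonist follistatin, was at 239, 247 and 188 CPM with DMSO, 75.4, 76.1 and 59.2 with SEL201, 27.1, 24.7 and 25.0 with OTX015 and 18.6, 18.8 and 13.6 with both agents. All 4 groups were apart. FST departed by 1.08 (SE 0.10, adjusted p = 7.5e-09, and 0.03 with no replicate block), where the sum gives 8.05 CPM. The related FSTL3 departed by 0.50 (SE 0.06), and ID4, a repressor of helix-loop-helix factors, was the 1 lower member (−0.68, SE 0.20). Without number 2 the list had 4 higher and 0 lower, and with no replicate block 2 and 0.

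Of 21 genes of the extracellular matrix and its proteases, 6 were higher and 4 lower (28.6% and 19%). The collagens COL12A1 (0.78, SE 0.10) and COL1A1 (0.74, SE 0.22) and the laminin subunit LAMB3 (0.46, SE 0.06) were higher than the sum, as was the fibrillin FBN1 (0.20, SE 0.06). The metalloproteases MMP15 (−0.36, SE 0.06), MMP17 (−0.37, SE 0.06) and MMP9 (−0.45, SE 0.08) and the proteoglycan VCAN (−0.43, SE 0.11) were lower. MMP17, a membrane-anchored protease, was at 201, 185 and 223 CPM with DMSO, 330, 329 and 368 with SEL201, 370, 326 and 396 with OTX015 and 440, 436 and 560 with both agents. COMBO was the highest group for MMP17 and the single agents overlapped. MMP9, by contrast, was lowered by each agent (log2 changes of −1.02 with SEL201 and −3.31 with OTX015), and in COMBO it was lower still than the sum. Without number 3 the list had 3 higher and 3 lower, and with no replicate block 0 and 0.

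The NRF2 and aldo-keto reductase list had 5 of 13 higher and 0 lower, with 2 lower at an unadjusted p under 0.05 and 0 lower in DESeq2. Its list median was 0.05, near that of all genes. The members that departed were AKR1C1, AKR1C2 (0.56, SE 0.12), AKR1C3 (0.51, SE 0.08), NNMT and the transporter ABCC3 (0.29, SE 0.08). AKR1C reads can be shared between the family's copies, so 3 of these 5 are not independent. NNMT was counted in the invasive list as well. The other measured members did not pass, among them HMOX1 (0.004), SRXN1 (−0.15) and OSGIN1 (−0.18). With no replicate block 2 passed, and without number 1 or number 2 it was 3.

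The amino acid response list of the transcription factor ATF4 was the list with called genes on the lower side only, with 4 of 15 lower and 0 higher and a median of −0.10. At an unadjusted p under 0.05 there were 5 lower and 1 higher, and DESeq2 called 3 lower and 0 higher. CBS, the first enzyme of transsulfuration, was at 382, 361 and 286 CPM with DMSO, 387, 386 and 289 with SEL201, 274, 256 and 204 with OTX015 and 211, 212 and 149 with both agents. SEL201 and UNTREATED were close within each number, and COMBO was the lowest there. SEL201 alone changed CBS by 0.04 (log2, SE 0.04, adjusted p = 0.38), and with OTX015 present it lowered it 1.29-fold, a departure of −0.41 (SE 0.05, adjusted p = 2.8e-06). ALDH1L2, a mitochondrial folate enzyme, was 295 ± 36.1 CPM with DMSO, 290 ± 37.4 with SEL201, 227 ± 25.2 with OTX015 and 193 ± 16.0 with both agents, a departure of −0.21 (SE 0.06, adjusted p = 0.021) that did not pass in 9 of the 15 fits that left out libraries. PCK2, the mitochondrial phosphoenolpyruvate carboxykinase, departed by −0.25 (SE 0.08), and VLDLR, a lipoprotein receptor, by −0.37 (SE 0.09). Without number 2 the list had 1 lower, without number 3 it had 4, and with no replicate block 0.

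Of 18 AP-1 and immediate early genes, 3 were higher and 1 lower. EGR1, an immediate early transcription factor, was at 178, 166 and 176 CPM with DMSO, 334, 406 and 306 with SEL201, 445, 446 and 374 with OTX015 and 590, 667 and 527 with both agents. COMBO was above every other library, and the sum gives 839 CPM. EGR1 departed by −0.50 (SE 0.07, adjusted p = 3.1e-05, and 0.19 with no replicate block). JUN, a subunit of AP-1, was lowered 1.21-fold by SEL201 and 1.17-fold by OTX015 alone, and in COMBO it was 1.12-fold above OTX015 and 1.16-fold above SEL201. Its departure was 0.43 (SE 0.08, adjusted p = 0.00026). FOSL2 and MAF departed by 0.24 each. Without number 3 the list had 2 higher and 3 lower, so that the balance turned, and with no replicate block 0 and 0. Of 10 MAPK output genes, the ephrin receptor EPHA4 (0.42, SE 0.07) and the phosphatase DUSP1 (0.20, SE 0.06) were higher, and SPRY1, a feedback inhibitor of the pathway, was lower (−0.48, SE 0.10). DUSP1 did not pass in 14 of the 15 fits that left out libraries, and without number 2 the adjusted p of SPRY1 was 0.09. The MAPK list had 1 higher and 0 lower without number 2, 1 and 1 without number 1 or number 3, and 0 and 0 with no replicate block.

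Of 19 melanocyte lineage and pigment genes, 3 were higher and 0 lower, with 3 lower at an unadjusted p under 0.05 and 0 lower in DESeq2. MITF, the master regulator of the lineage, was at 169, 187 and 165 CPM with DMSO, 144, 159 and 137 with SEL201, 153, 148 and 141 with OTX015 and 155, 158 and 149 with both agents. The treated groups overlapped, below the untreated ones. Each agent alone lowered MITF 1.18-fold and COMBO stayed at the single-agent level, a departure of 0.30 (SE 0.06, adjusted p = 0.0018). GPNMB, a melanosome glycoprotein, departed by 0.25 (SE 0.05), and TFAP2A, a neural crest transcription factor, by 0.28 (SE 0.08). TFAP2A did not pass in 10 of the 15 fits that left out libraries, and the list had 0 called with no replicate block.

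Of 19 CDK inhibitor, p53 and senescence genes, 1 was higher and 3 lower. SESN3, a sestrin that restrains mTORC1, was at 30.9, 33.3 and 33.2 CPM with DMSO, 60.5, 65.0 and 68.2 with SEL201, 112, 118 and 110 with OTX015 and 160, 160 and 167 with both agents. The 4 groups were apart, and COMBO fell short of the 225 CPM of the sum (interaction −0.47, SE 0.08, adjusted p = 0.00012, and 0.033 with no replicate block). CDKN1C, the CDK inhibitor p57, was lowered 1.22-fold by SEL201 without OTX015 and 1.53-fold with it (interaction −0.32, SE 0.07, adjusted p = 0.0047). TP53INP1, a p53 target, was the 1 higher member (0.49, SE 0.13). Without number 1 the list had 0 higher and 2 lower, without number 2 it had 3 and 3, without number 3 it had 0 and 3, and with no replicate block 0 and 1. Of 21 apoptosis regulators 1 was higher, BCL2A1, a BCL2 relative and MITF target (0.75, SE 0.17, adjusted p = 0.0045). None was called lower, with 1 lower at an unadjusted p under 0.05 and 0 in DESeq2. The adjusted p of BCL2A1 was 0.076 without number 1, 0.06 without number 2 and 0.34 with no replicate block.

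Of 24 neuronal and synaptic genes, 4 were higher and 2 lower. CALB2, the calcium buffer calretinin, departed by 0.74 (SE 0.08, adjusted p = 1.1e-07), the secretory granule chaperone SCG5 by 0.91 (SE 0.14) and the axonal motor KIF1A by 0.36 (SE 0.06). SNAP25, of the vesicle fusion machinery, and the motor KIF5C departed by −0.61 (SE 0.18) and −0.23 (SE 0.06). Of 14 cholesterol genes, the sterol transporter STARD4 (0.42, SE 0.08) and the desaturase FADS2 (0.22, SE 0.06) were higher. Of 10 chromatin regulators, the deacetylases HDAC9 (0.37, SE 0.07) and HDAC4 (−0.20, SE 0.06) departed in opposite directions, and the lactate exporter SLC16A3 (0.31, SE 0.09) was the 1 of 10 hypoxia genes that departed. HDAC4 did not pass in 10 of the 15 fits that left out libraries, and SLC16A3 in 13. The neuronal list had 1 higher and 0 lower with no replicate block, and the cholesterol, chromatin and hypoxia lists had 0 and 0. Leaving out any 1 number left 1 cholesterol gene and 0 hypoxia genes. Cell cycle genes gave 0 of 7, endoplasmic reticulum stress genes 0 of 5 and lysosome and autophagy genes 0 of 17, in edgeR and in DESeq2. At an unadjusted p under 0.05 there were 1, 0 and 3. These 3 lists held 55, 22 and 43 genes, so most members were not in the count table and the lists as a whole were not tested.

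**Figure D5:**
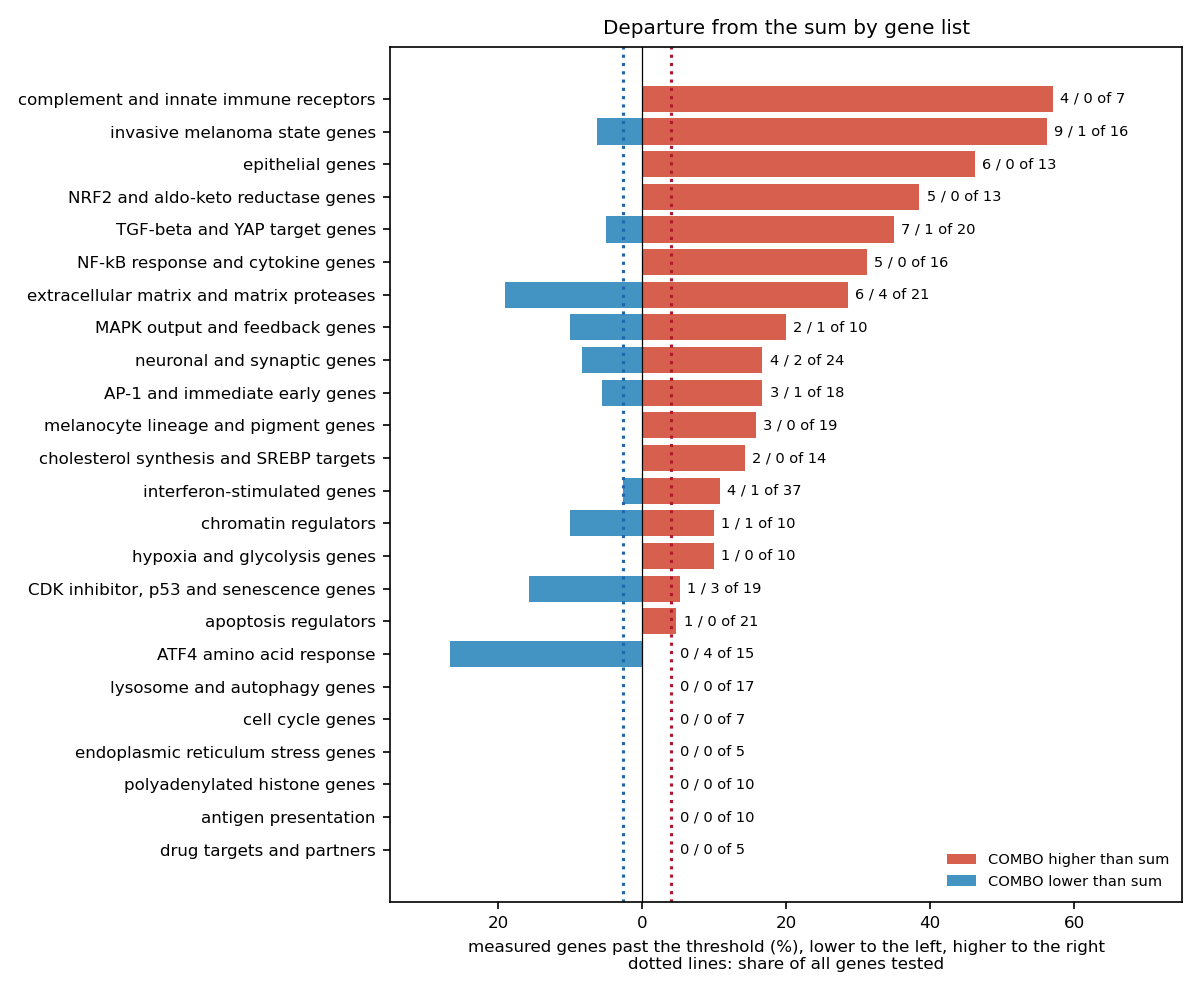
Share of the measured genes of each list (%) that departed from the sum past the threshold, higher to the right and lower to the left, with the counts (higher / lower of measured) beside each bar. Dotted lines mark the shares over all genes tested, 4.02% and 2.73%, and the ATF4 list shows calls to the left only.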

How the data were processed

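The labels' protocols give stranded, paired-end poly(A) sequencing with reads of 150 bases. The authors deposited a table of raw counts per gene for the 12 libraries. For how it was made, the submitters' processing notes list STAR 2.5.4b, featureCounts and DESeq2 among the tools, with FastQC, Trimmomatic and SAMtools 1.9, and the build hg19, and give them no roles. The annotation, strand setting and gene filter behind the counts were not given in sources used here.

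The counts were fitted in R 4.3.3 by the quasi-likelihood method of edgeR 4.0.16 (glmQLFit and glmQLFTest after TMM scaling and filterByExpr, which kept all 8579 genes) as group means plus replicate number, with Benjamini-Hochberg adjustment over 8579 genes and a threshold of 0.05. The interaction and 5 simple contrasts came from this fit. SE is the log2 value divided by the square root of F, and the level from the sum is computed from fitted changes. Values within a number use log2(CPM + 0.5). Pairing by number was checked from the data, since the labels do not explain the numbers. Deviations from group means correlated at 0.27 to 0.58 in 18 same-number pairs and at −0.47 to 0.2 in 36 others. In this check 12 of 12 libraries matched their own number best. Deviations from a group mean cancel within the group, so higher same-number correlations bring lower ones between other numbers. The gap between the ranges is therefore partly arithmetic.

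Named genes are the 12 with the largest positive and the 12 with the largest negative interaction among those past the threshold, with at least 5 CPM on average in a group and 1 sign in all 3 numbers (clone-based and antisense names skipped), plus TGM2, the measured drug targets and up to 3 called members with the lowest p of each of 25 gene lists, or all members of a list of up to 5. Other genes of these lists given with their values, and the promoters shown, were chosen after the values were seen. Members and lists were chosen with earlier results of these data known, and the series title names TGM2, so these are not independent evidence. Alternatives were RLE scaling, column totals only, DESeq2 1.42.0, no filter, at least 10 CPM, no replicate block, the linear CPM scale (limma 3.58.1) and leaving out each library or number. Counts per list without a number or the block were added after seeing the data. The scripts were tested on simulated data.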

Additional observations from a re-analysis of the deposited data

Results flagged for a closer look

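Among the named genes, some changed in opposite directions with an agent, depending on whether the other agent was present, with both changes and the interaction past the threshold in edgeR. With SEL201, lower without OTX015 and higher with it, these were KRT6A (interaction 2.04), SERPINB2 (1.89), PXDN (1.33), IL24 (0.917) and JUN (0.435). With SEL201, higher without OTX015 and lower with it, they were ITGA9 (−0.803), COL2A1 (−0.849) and ZP4 (−0.952). With OTX015, NGFR (0.961) and JUN (0.435) were lower without SEL201 and higher with it, and ITGA9 (−0.803) was the reverse. With no replicate block, COL2A1 kept an interaction past the threshold (adjusted p = 0.048) and the other 8 of these 9 genes did not. Among all genes, 19 were lowered by SEL201 without OTX015 and raised with it and 13 the reverse, and for OTX015 the numbers were 17 and 12.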

How the results depend on the processing

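RLE scaling (352 higher, 224 lower), DESeq2 (357, 230), at least 10 CPM (344, 217) and no filter (345, 234) left both counts within 1.5 times of 345 and 234. There were 0 changes of sign among those of the 579 genes that each fit tested. The 10 CPM setting tested 7341 genes and DESeq2 8246. With no replicate block the counts were 18 and 6, or 10 and 2 at 1.5-fold, with a biological coefficient of variation of 7.92% against 4.35% with the replicate block, and 57 of 68 named genes no longer passed. The labels do not state the pairing. On the linear CPM scale 608 were higher and 113 lower, with 10 of the 579 of opposite sign. Of the 68 named genes, 10 no longer passed on that scale and 1 reversed, SESN3 at 17.2 CPM (adjusted p = 0.04). Among genes that were not called, MKNK1 turned to 5.11. The departures given for single genes above, such as the shortfalls of EGR1 and MMP17, are on the log2 scale only. Leaving out libraries or numbers gave 210 to 318 higher, 101 to 274 lower (without number 2, 221 and 101; without number 1, 210 and 116) and 13 to 31 lower by at least 1.5-fold. Of genes that did not pass, the value crossed 0 for TGM1 (−0.08 to 0.36), SDF2L1 (−0.026 to 0.173), MKNK1 (−0.036 to 0.03), EIF4ENIF1 (−0.068 to 0.032), CRELD2 (−0.087 to 0.015) and LARP7 (−0.142 to 0.004). Column totals alone ended the call of SLC16A3 and DUSP1, and DESeq2 that of SSX2 and PIANP. Apart from the scale, whose construction differs, the cause of these shifts was not tested. Depth limits the genes with under 100 COMBO counts per library, and 6 residual degrees of freedom limit all.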

Other observations

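Several further genes, chosen after their values were seen, changed in opposite directions with SEL201 without and with OTX015. KRT6B, a keratin whose reads can be shared with KRT6A, fell by 0.81 (log2) with SEL201 alone and was 0.27 higher in COMBO than in OTX015 (interaction 1.08, SE 0.06, adjusted p = 3e-13). KDR, the main receptor for vascular endothelial growth factor, had changes of −0.28 and 0.41 (interaction 0.69, SE 0.08), and the guidance ligand SLIT2 of −0.52 and 0.18 (interaction 0.69). CCNA1, the germ cell cyclin A1, was lowered by each agent alone and averaged 131.1 CPM with DMSO, 105.8 with SEL201, 111.5 with OTX015 and 130.3 with both agents (interaction 0.53, SE 0.08, adjusted p = 2.1e-05). SORCS1, a sorting receptor, did the opposite, with 234.2, 287.4, 267.7 and 232.2 CPM (interaction −0.52, SE 0.07, adjusted p = 3.8e-06). With OTX015, the bone morphogenetic protein BMP7 had changes of 0.31 without and −0.25 with SEL201.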
